A study of Mus musculus with 12 samples.

Results

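The collagen gene family was described here by every row of the deposited count table whose symbol is Col, a number, the letter a and a number, such as Col1a1 or Col13a1. The rule found 44 genes among 77175 rows. They comprise 11 fibrillar collagens, 6 type IV chains of the basement membrane, 6 type VI chains, 9 fibril-associated collagens, 4 membrane-spanning collagens, 3 network collagens, 2 multiplexins, the anchoring fibril collagen Col7a1, and Col26a1 and Col28a1, which stand in none of these types. Messenger RNA was measured by bulk sequencing in 12 mouse libraries, 4 groups of 3. The first 2 groups were melanoma cells taken from tumors by FACS for the calcium indicator GCaMP6s. One was the line B16-F10 with the vector pLV[Exp]-Puro-EF1A>GCaMP6s, and the other the line B16-F10-OVA, which carries that vector and pLV[Exp]-Neo-EF1A>{ovalbumin}. The other 2 groups were CD8+ T lymphocytes of genotype C57BL/6J-OT-I, collected from B16-F10 or from B16-F10-OVA tumors with CD8 antibody beads. OT-1 T cells carry a receptor for an ovalbumin peptide. All tumors grew in NOD-SCID mice, all mice received OT-1 CD8+ T cells that beads with anti-CD3 and anti-CD28 had activated, and tumors were taken 2 days later, so that no group came from an untreated mouse. NOD-SCID mice have no T or B cells of their own but keep myeloid cells, blood vessels and connective tissue. The EF1A promoter is active in most cell types. The labels give no age, and nothing in them ties the 3 libraries of each group to different mice, so a p-value covers no more than library-to-library spread, possibly technical in source. The groups are called the tumor fraction and the T cell fraction, each with the B16-F10 or the OVA label. Below, results for tumor cells and T cells refer to these fractions as collected, not to the cell type that made the RNA.

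Collagens are secreted or membrane-bound proteins of 3 chains wound into a triple helix. Fibrillar collagens, led by types I, III and V, form the fibers of connective tissue and are made mainly by fibroblasts, whereas type IV collagen forms the sheet of the basement membrane under endothelium and epithelium and around pericytes. Type VI collagen forms beaded filaments near basement membranes, and the multiplexins, type XV and type XVIII, are basement membrane collagens that carry sugar chains. Fibril-associated collagens sit on the surface of fibers, and membrane-spanning collagens are held in the plasma membrane. In solid tumors collagen is known to come largely from stromal cells, and the balance of fibers and basement membrane shapes the matrix that T cells move through.

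Library totals ran from 15494683 to 33263730 counts, and the 44 genes took 4469333 counts over all libraries. Levels are given in CPM, in which each count is scaled by the total of its library. Both T cell groups held far more RNA of vessel markers than of T cell markers, which goes against their label. The 12 endothelial markers summed to 12980 to 13060 CPM in the B16-F10 T cell fraction and 12290 to 12350 CPM in the OVA T cell fraction, where the 12 T cell markers summed to 907 to 916 and 894 to 898 CPM. All 6 T cell libraries shared this, so no comparison of T cells remains without them. The B16-F10 tumor fraction had 309.9 to 316 CPM of endothelial markers, with Cldn5 and Emcn at 0, and 4.32 to 4.91 CPM of T cell markers, with Cd2, Cd3e, Trac and Trbc2 at 0. The OVA tumor fraction had 5234 to 5311 CPM of endothelial markers, and its 12 melanoma markers were lower, at 9993 to 10010 CPM against 23440 to 23530 CPM. The 9 pericyte markers stood at 78.0 to 88.8 CPM in the B16-F10 tumor fraction, with Higd1b and Kcnj8 at 0, and at 1546 to 1566, 4290 to 4325 and 3574 to 3596 CPM in the OVA tumor fraction and the B16-F10 and OVA T cell fractions. The 12 fibroblast markers, none of them a collagen, stood at 137 to 139, 369 to 374, 885 to 888 and 1054 to 1086 CPM in the same order of groups, with none at 0 in any group. The 10 macrophage and monocyte markers stood at 12.35 to 12.97, 1737 to 1743, 326.8 to 334 and 237 to 245 CPM, again in that order. Between the tumor fractions the endothelial, pericyte, fibroblast and macrophage sums rose as most collagens did, whereas in T cells the fibroblast sum was higher under the OVA label. The part of these lists in the collagen differences was not tested. In bulk RNA, fewer cells of a type and less RNA per cell cannot be told apart.

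Collagen RNA was scarce in the B16-F10 tumor fraction and a sizeable part of the messenger RNA in the other 3 groups. The family took 0.0390% ± 0.00076 of all counts in the B16-F10 tumor fraction, 1.17% ± 0.0103 in the OVA tumor fraction, 3.11% ± 0.0202 in the B16-F10 T cell fraction and 2.93% ± 0.0180 in the OVA T cell fraction (SD, n = 3). The share was 30.1 times as high in OVA as in B16-F10 tumor cells, a difference of 1.13 percentage points, and 0.18 percentage points lower in OVA than in B16-F10 T cells. No 2 groups overlapped, and each of the 4 comparisons of groups gave a two-sided exact permutation p of 0.1, the smallest that 3 against 3 allows. The make-up of the collagen RNA differed as well. Fibrillar genes took 34.2% ± 0.708 of the collagen counts in the B16-F10 tumor fraction, fibril-associated genes 32.3% ± 0.381 and type IV genes 25.1% ± 0.32. In the OVA tumor fraction the type IV genes took 59.8% ± 0.14, fibrillar genes 20.3% ± 0.0666, multiplexins 10.6% ± 0.0643 and type VI genes 7.34% ± 0.0265. The B16-F10 T cell fraction had 59.2% ± 0.0907 type IV and 19.8% ± 0.105 fibrillar, and the OVA T cell fraction 61.2% ± 0.0723 and 19.1% ± 0.0321. Fibril-associated genes were at 0.9996% ± 0.00511 of the collagen counts or less in these 3 groups. The make-up of the OVA tumor fraction was thus nearer to that of both T cell groups than to that of the B16-F10 tumor fraction.

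**Figure D1:**
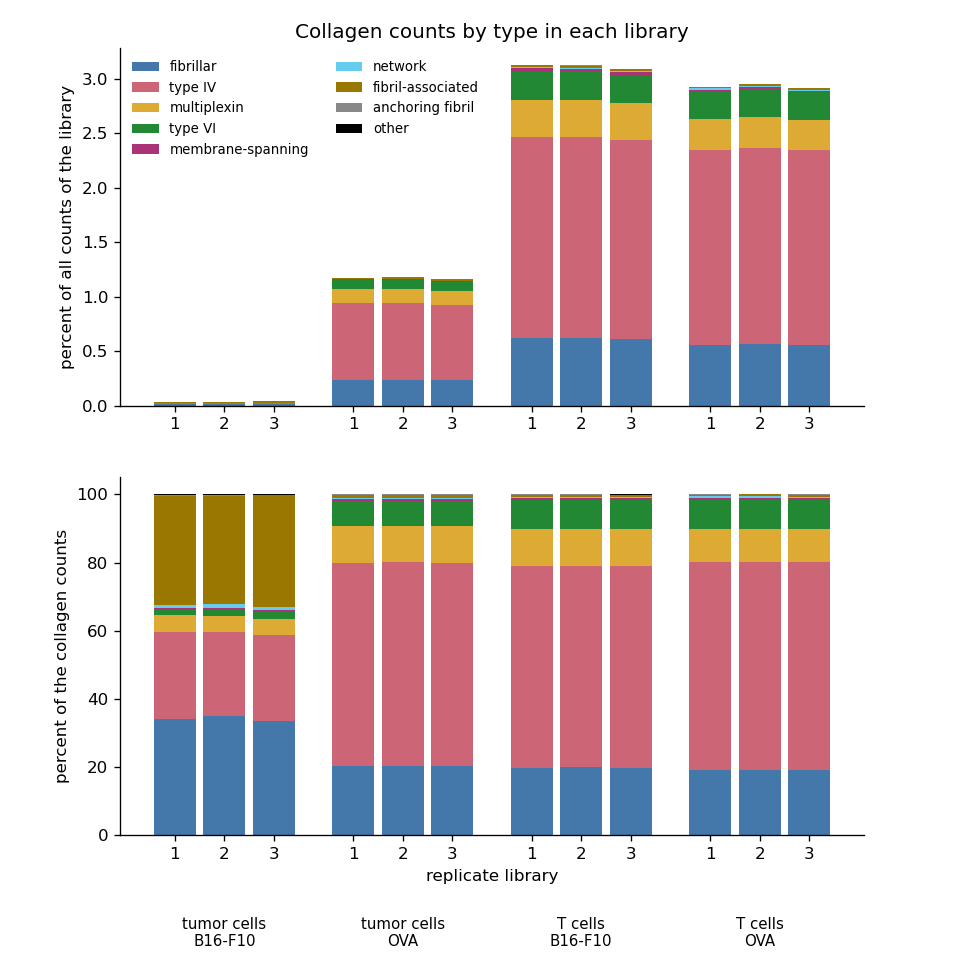
Collagen counts by type in each of the 12 libraries, as a percent of all counts of the library (upper panel) and of the collagen counts (lower panel). The upper bars are near 0 in the B16-F10 tumor fraction and close to 3% in both T cell groups, and the lower panel shows a broad fibril-associated band in the B16-F10 tumor fraction, where fibril-associated genes took 32.3%.

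Per kilobase of exon, the leading collagen was not the same gene in the 4 groups. In the B16-F10 tumor fraction the fibril-associated Col16a1 led with 14.7 CPM per kilobase, ahead of the type IV gene Col4a5 at 4.19, and then Col1a1, Col4a2 and Col3a1 at 3.74, 3.71 and 3.62. These last 3 differ by less than the spread of their libraries. In the OVA tumor fraction, Col4a1 led with 560.0 CPM per kilobase, followed by Col4a2 at 425, Col18a1 at 105 and Col1a1 at 100.0. Col4a1 and Col4a2 also led in the T cell fractions, with 1490 and 1100 CPM per kilobase under the B16-F10 label and 1460 and 1070 under the OVA label. By CPM, 17 of the 44 genes reached a mean of 50 CPM in at least 1 group. Of these, Col16a1 alone did so in the B16-F10 tumor fraction, against 15 genes in the OVA tumor fraction and 16 in each T cell group. A further 9 genes were under 1 CPM in every group: Col4a3, Col4a6, Col6a5, Col8a2, Col19a1, Col22a1, Col24a1, Col25a1 and Col26a1. The other 18 lay between 1 and 50 CPM in their highest group.

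**Figure D2:**
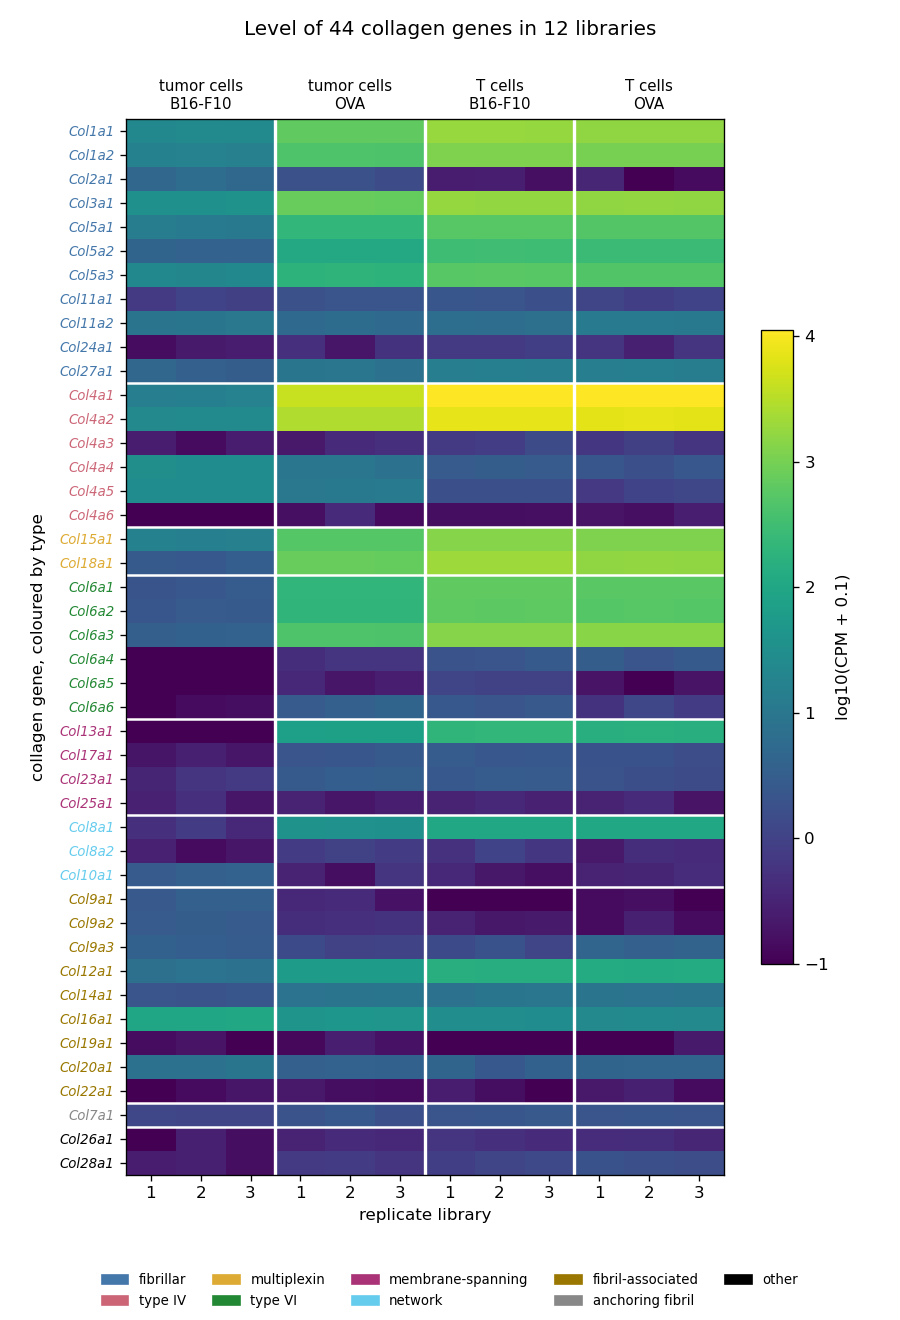
Level of each of the 44 collagen genes in each of the 12 libraries, as log10 of CPM plus 0.1, with genes in rows grouped and coloured by type. Most rows brighten from the B16-F10 tumor fraction to the OVA tumor fraction and again to the T cell fractions. The rows of Col16a1, Col4a4, Col4a5 and Col9a1 darken.

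The comparison of the OVA tumor fraction with the B16-F10 tumor fraction asks how melanoma that carries the OT-1 antigen differs from melanoma that lacks it when both met OT-1 T cells. Most collagens were higher under the OVA label, the type IV pair Col4a1 and Col4a2, the multiplexins and type VI by far, while Col2a1, Col9a1, Col9a2, Col10a1 and Col16a1 were among those that were lower. Of the 35 genes that passed the filter on low counts, 25 were called higher and 10 lower with edgeR's quasi-likelihood test (Benjamini-Hochberg adjusted p under 0.05 over 17418 genes). Among all genes tested, 42.0% were called higher and 37.4% lower, 79.4% in all, so a call by itself was common. The median log2 fold change was 3.15 over the 35 genes and 0.04 over all genes tested. Genes nearly absent from 1 group can pass the filter only through the other, so these counts describe the genes that passed and not the whole family. In none of the 35 did the libraries of the groups overlap, and 82.6% of all genes tested had no overlap either. The other 9 genes were too low to be tested.

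The promoters of 4 of these genes are shown: Col3a1, Col5a3 and Col13a1, which were higher under the OVA label in tumor cells, and Col10a1, which was lower. They were picked after the values were seen, from the 20 genes with a window that holds no annotated exon. As a set they are not the genes that moved furthest, although Col13a1 had the highest log2 fold change of those tested and Col10a1 was among the 3 lowest. Col6a3, Col15a1 and Col9a1 moved further than Col5a3, with log2 fold changes of 7.15, 5.18 and -3.61 against 3.25. Each of these has an exon-free window without a match, whereas every window shown holds a match. Each window is the 250 bases before the RefSeq start on build GRCm38.p6, printed 5′ to 3′ on the strand of the gene, at chr1:45311288-45311537, plus strand, chr9:20815068-20815317, minus strand, chr10:61979109-61979358, minus strand and chr10:34389731-34389980, plus strand. Capitals mark matches on either strand to the TATA box TATAAA, the CCAAT box CCAAT, the GC box GGGCGG and the E-boxes CATGTG and CACGTG. None of the marked matches overlap.
Col3a1: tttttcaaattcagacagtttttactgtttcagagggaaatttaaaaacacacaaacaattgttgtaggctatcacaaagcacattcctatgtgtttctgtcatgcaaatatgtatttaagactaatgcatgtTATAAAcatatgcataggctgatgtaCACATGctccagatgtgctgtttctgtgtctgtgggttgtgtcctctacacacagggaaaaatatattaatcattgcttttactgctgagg
Col5a3: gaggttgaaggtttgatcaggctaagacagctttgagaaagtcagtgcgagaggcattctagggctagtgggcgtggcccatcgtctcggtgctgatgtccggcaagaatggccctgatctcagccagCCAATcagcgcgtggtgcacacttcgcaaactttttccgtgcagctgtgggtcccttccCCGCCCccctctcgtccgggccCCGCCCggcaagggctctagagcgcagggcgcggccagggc
Col13a1: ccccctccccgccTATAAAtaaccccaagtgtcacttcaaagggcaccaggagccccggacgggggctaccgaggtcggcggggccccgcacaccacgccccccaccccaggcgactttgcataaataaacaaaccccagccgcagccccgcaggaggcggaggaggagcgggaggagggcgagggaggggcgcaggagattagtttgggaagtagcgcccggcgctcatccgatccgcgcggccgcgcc
Col10a1: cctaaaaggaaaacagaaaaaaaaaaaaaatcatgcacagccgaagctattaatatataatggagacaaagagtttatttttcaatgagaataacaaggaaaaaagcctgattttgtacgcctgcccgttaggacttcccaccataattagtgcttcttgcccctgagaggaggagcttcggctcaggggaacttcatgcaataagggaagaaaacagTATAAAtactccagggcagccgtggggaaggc
The Col3a1 window holds TATAAA at 117 bases and CATGTG, read as CACATG, at 91 bases before the start. The Col5a3 window holds CCAAT at 122 bases and the GC box, read as CCGCCC, at 63 and 41 bases before the start. TATAAA lies 32 bases before the start of Col10a1 and 237 bases before that of Col13a1. Of the 44 genes, 35 matched a RefSeq window, 38 windows in all. GC boxes were in 22 of the 38 (57.9%) and in 32.7% of 32851 windows of all genes. The CCAAT box was in 34.2% of the collagen windows against 33.8% of all, TATAAA in 13.2% against 12.4%, and CATGTG in 7.89% against 12.3%. CACGTG was in none of the 38 collagen windows and in 6.02% of all. A match is a description of the letters, not of a bound site.

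Of the 10 fibrillar genes tested in tumor cells, 8 rose and 2 fell with the OVA label. Col1a1 and Col1a2 encode the chains of type I collagen, the main fiber of connective tissue. Col1a1 had 22.9, 26.2 and 24.6 CPM in the B16-F10 tumor fraction, 660.4, 656 and 661 in the OVA tumor fraction, 1829, 1836 and 1799 in the B16-F10 T cell fraction and 1633, 1647 and 1629 in the OVA T cell fraction. The 3 libraries of each group lay close together, and no group overlapped another. Its log2 fold change in tumor cells was 4.91 (SE 0.0263, edgeR adjusted p = 3.58e-33). In the same order of groups, Col1a2 had 16.5, 17.6 and 15.6 CPM, then 457, 448 and 444, then 1206, 1205 and 1171, then 1026, 1028 and 1019, with a log2 fold change of 4.93 (SE 0.0292) in tumor cells. Col3a1, the type III collagen of elastic tissues and of vessel walls, whose promoter is shown above, had 33.8, 34.8 and 37.9 CPM, then 735, 745 and 729, then 1744, 1732 and 1722, then 1659, 1683 and 1638, with a log2 fold change of 4.55 (SE 0.0248). In each of these genes the order was the same: lowest in the B16-F10 tumor fraction, between in the OVA tumor fraction, and highest in the T cell fractions.

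Type V collagen is a minor chain set that starts and limits the growth of type I fibers. In that order of groups, Col5a1 had 12.9, 12.6 and 10.7 CPM, then 218, 216 and 217, then 547, 556 and 539.5, then 493, 508 and 496. Col5a2 had 4.09, 3.71 and 3.80 CPM, then 110.2, 111 and 109, then 299, 311 and 304, then 282, 275 and 277. Col5a3 had 22.8, 20.4 and 22.3 CPM, then 182, 191 and 182, then 552, 563 and 536, then 469.7, 471 and 473. Their log2 fold changes in tumor cells were 4.33 (SE 0.0368), 5.00 (SE 0.0510) and 3.25 (SE 0.0354), and Col5a3, the highest of the 3 in the B16-F10 tumor fraction, whose promoter is shown above, moved least. Of the less abundant fibrillar genes, Col11a1, a chain of cartilage type XI collagen, rose from 0.783 ± 0.168 to 1.92 ± 0.176 CPM in tumor cells, and Col27a1 from 3.64 ± 0.813 to 8.75 ± 0.733 CPM. Col2a1, the main collagen of cartilage, fell from 5.23 ± 0.996 to 1.58 ± 0.185 CPM, a log2 fold change of -1.56 (SE 0.170, edgeR adjusted p = 1.68e-08). Col11a2, the other type XI chain, fell from 9.32 ± 0.840 to 5.50 ± 0.458 CPM with a log2 fold change of -0.60 (SE 0.0993), but rose by 0.46 where libraries were scaled to the melanoma markers. Col24a1 had 7 and 26 counts over the tumor groups and was not tested.

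Type IV collagen split into an abundant pair that rose and chains that fell. Col4a1 (ENSMUSG00000031502) and Col4a2 (ENSMUSG00000031503) lie head to head and encode the chains found in nearly every basement membrane. Col4a1 had 14.6, 14.8 and 17.4 CPM in the B16-F10 tumor fraction, 4192, 4224 and 4121 in the OVA tumor fraction, 11150, 11190 and 11060 in the B16-F10 T cell fraction and 10870, 10950 and 10840 in the OVA T cell fraction. Its lowest library under the OVA label in tumor cells stood far above every library of the B16-F10 tumor fraction, with a log2 fold change of 8.24 (SE 0.0269, edgeR adjusted p = 9.9e-37). Col4a2 had 23.6, 24.3 and 25.7 CPM, then 2830, 2822 and 2779, then 7354, 7283 and 7275, then 7043, 7118 and 7047 in the same order, with a log2 fold change of 7.01 (SE 0.0220). The ratio of Col4a1 to Col4a2 counts was 0.635 ± 0.0375 in the B16-F10 tumor fraction, and 1.49 ± 0.00853, 1.52 ± 0.0105 and 1.54 ± 0.00317 in the other groups. Per length these are 0.563, 1.32, 1.35 and 1.37. The pair thus had more Col4a2 than Col4a1 in the B16-F10 tumor fraction and the reverse in every other library. The ratio of Col1a1 to Col1a2 counts stayed between 1.47 ± 0.0210 and 1.598 ± 0.00536 over the groups, and that of Col6a1 to Col6a2 between 0.9385 ± 0.131 and 1.079 ± 0.00764. Other ratios shifted too. In the same order of groups, Col5a1 to Col5a2 was 3.12, 1.97, 1.80 and 1.80. Col3a1 to Col1a1 was 1.447, 1.116, 0.951 and 1.015, and Col6a3 to Col6a1 was 1.54, 2.16, 2.05 and 2.47. Col4a4 and Col4a5 encode chains of the specialised basement membranes of kidney, lung and ear. In tumor cells Col4a4 fell from 29.2 ± 1.48 to 8.93 ± 0.873 CPM with a log2 fold change of -1.54 (SE 0.0687), and it stood at 2.82 ± 0.201 and 2.02 ± 0.348 CPM in the B16-F10 and OVA T cell fractions. Col4a5 had 28.1, 28.1 and 28.4 CPM, then 10.6, 11.1 and 12.2, then 1.61, 1.64 and 1.61, then 0.577, 0.930 and 1.10, so that it fell stepwise where Col4a1 rose. Its log2 fold change in tumor cells was -1.15 (SE 0.0604), and -0.09 with adjusted p = 0.176 in edgeR where libraries were scaled to the melanoma markers. Col4a3 and Col4a6 had at most 46 counts over a group, and Col4a6 was at 0 in the B16-F10 tumor fraction, which allows up to 0.0473 CPM.

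Both multiplexins, whose cut ends include the vessel-acting fragment endostatin in type XVIII, rose. Col18a1 had 2.54, 2.33 and 3.17 CPM in the B16-F10 tumor fraction, 741, 734 and 731 in the OVA tumor fraction, 2052, 2030 and 2006 in the B16-F10 T cell fraction and 1660, 1675 and 1656 in the OVA T cell fraction. Its log2 fold change of 8.28 (SE 0.0363, edgeR adjusted p = 1.64e-34) in tumor cells was the highest of the genes detected in every group. Col15a1 had 16.7, 15.2 and 15.7 CPM, then 516, 514 and 511, then 1349, 1362 and 1346, then 1164, 1170 and 1160 in the same order, with a log2 fold change of 5.18 (SE 0.0265). Both kept the libraries of all 4 groups apart. Type VI genes rose in tumor cells in all 4 members tested. Col6a1, Col6a2 and Col6a3 encode the chains of the main form of beaded filament. Col6a1 had 1.97, 2.20 and 2.85 CPM, then 208, 208 and 208, then 660.0, 651 and 662, then 576, 579.5 and 566. Col6a2 had 2.16, 2.67 and 2.64 CPM, then 198, 205 and 199, then 628, 609 and 616, then 531, 541 and 523. Col6a3 had 3.34, 3.58 and 3.75 CPM, then 453, 449 and 445, then 1365, 1359 and 1325, then 1418, 1432 and 1405. Their log2 fold changes in tumor cells were 6.65 (SE 0.0495), 6.50 (SE 0.0493) and 7.15 (SE 0.0352). The alternative chains of this filament were rare: Col6a6 had 2 counts in the B16-F10 tumor fraction and 255 in the OVA tumor fraction, a ratio of CPM of 105 (95% counting interval 28.8 to 873.5), and edgeR called it higher (adjusted p = 1.4e-12). Col6a4 and Col6a5 were at 0 in the B16-F10 tumor fraction and had 33 and 15 counts in the OVA tumor fraction.

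Among membrane-spanning collagens, Col13a1 (ENSMUSG00000058806) separated the groups most sharply. Type XIII collagen sits at cell adhesion sites and at the neuromuscular junction. Col13a1 had 0 counts in each library of the B16-F10 tumor fraction, 71.4, 72.4 and 72.5 CPM in the OVA tumor fraction, 206, 217 and 216 CPM in the B16-F10 T cell fraction and 153, 159 and 151 CPM in the OVA T cell fraction. Set against 3 counts in that group as the floor, it was at least 1523-fold higher in the OVA tumor fraction (edgeR adjusted p = 5.68e-25). Its promoter window above holds TATAAA far from the start. Col17a1, the hemidesmosome collagen of epithelium, rose from 0.124 ± 0.0423 to 2.27 ± 0.240 CPM in tumor cells, a log2 fold change of 4.27 (SE 0.338), and Col23a1 from 0.447 ± 0.200 to 3.02 ± 0.326 CPM, a log2 fold change of 2.91 (SE 0.261). Col25a1, first known from amyloid plaques, had 12 to 15 counts in every group and was not tested. The network collagen Col8a1, a product of vessel wall and cornea, had 0.376, 0.646 and 0.264 CPM, then 36.6, 35.8 and 33.4, then 105, 106 and 109, then 107, 104 and 102 in the order used above. It rose in tumor cells with a log2 fold change of 6.47 (SE 0.125, edgeR adjusted p = 9.34e-23), and its partner Col8a2 rose from 0.112 ± 0.0727 to 0.761 ± 0.126 CPM.

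Fibril-associated collagens were the type in which most tested members fell in tumor cells, 5 of 7, with a median log2 fold change of -1.05. Col16a1 (ENSMUSG00000040690), found near fibrils and basement membranes, ran against the other abundant genes, with 98.3, 96.4 and 102 CPM in the B16-F10 tumor fraction, 41.5, 44.7 and 42.1 in the OVA tumor fraction, 30.2, 29.8 and 28.9 in the B16-F10 T cell fraction and 23.3, 25.7 and 23.9 in the OVA T cell fraction. The groups did not overlap. From the B16-F10 tumor fraction through the OVA tumor fraction to the T cell fractions, the order was the reverse of that of Col1a1. Between the T cell fractions it was the same, with the OVA label lower in both genes. In tumor cells it fell by 1.05 on the log2 scale (SE 0.0347, edgeR adjusted p = 3.9e-18), and the value was 0.01 where libraries were scaled to the melanoma markers. The chains of type IX collagen, which coats cartilage fibrils, fell as well. Col9a1 had 2.44, 3.45 and 3.38 CPM in the B16-F10 tumor fraction and 0.271, 0.320 and 0.0805 in the OVA tumor fraction, Col9a2 2.73, 2.93 and 2.74 and 0.361, 0.373 and 0.443, with log2 fold changes of -3.61 (SE 0.312) and -2.66 (SE 0.243). The remaining chain, Col9a3, fell from 3.19 ± 0.441 to 1.05 ± 0.167 CPM (log2 fold change -1.40 (SE 0.199)), and by 0.34 with adjusted p = 0.114 in edgeR where libraries were scaled to the melanoma markers. Col20a1 went from 7.99 ± 0.990 to 3.57 ± 0.154 CPM (edgeR adjusted p = 5.17e-08), and its log2 fold change became 0.07 under that scaling. Col10a1, the collagen of growth plate cartilage, belongs to the network type and fell with them, from 2.77, 3.36 and 3.80 CPM to 0.210, 0.0533 and 0.483 CPM, a log2 fold change of -3.47 (SE 0.320, edgeR adjusted p = 9.4e-10). Of the 8 cartilage markers that are not collagens, 5 were too low to be tested, 2 were called lower and 1 was not called. Hapln1, which links cartilage proteoglycan, fell from 5.92 ± 0.610 to 0.507 ± 0.153 CPM. Sox9, a regulator of cartilage genes, fell from 21.6 ± 1.84 to 8.54 ± 0.329 CPM. The log2 fold changes of the 3 tested ran from -3.44 to -0.97, with a median of -1.16. Those of the melanoma markers ran from -2.09 to 0.66, with a median of -1.18, and their part in the cartilage values was not tested. The cartilage markers summed to 28.3 ± 2.84, 9.86 ± 0.535, 3.68 ± 0.237 and 2.21 ± 0.199 CPM over the groups in the order above. Hapln1 and Sox9 made up most of the sum in the B16-F10 tumor fraction, where Matn1 was at 0. In contrast Col12a1, which coats type I fibers under tension, had 7.29, 8.14 and 7.39 CPM, then 61.8, 59.3 and 60.0, then 144, 141 and 138, then 125, 122 and 130.0 and rose with a log2 fold change of 3.15 (SE 0.0545, edgeR adjusted p = 1.15e-23). Col14a1 rose from 2.01 ± 0.139 to 8.73 ± 0.402 CPM. The anchoring fibril collagen Col7a1 rose from 1.06 ± 0.0236 to 1.94 ± 0.374 CPM, and Col28a1 from 0.122 ± 0.0620 to 0.585 ± 0.0883 CPM.

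**Figure D3:**
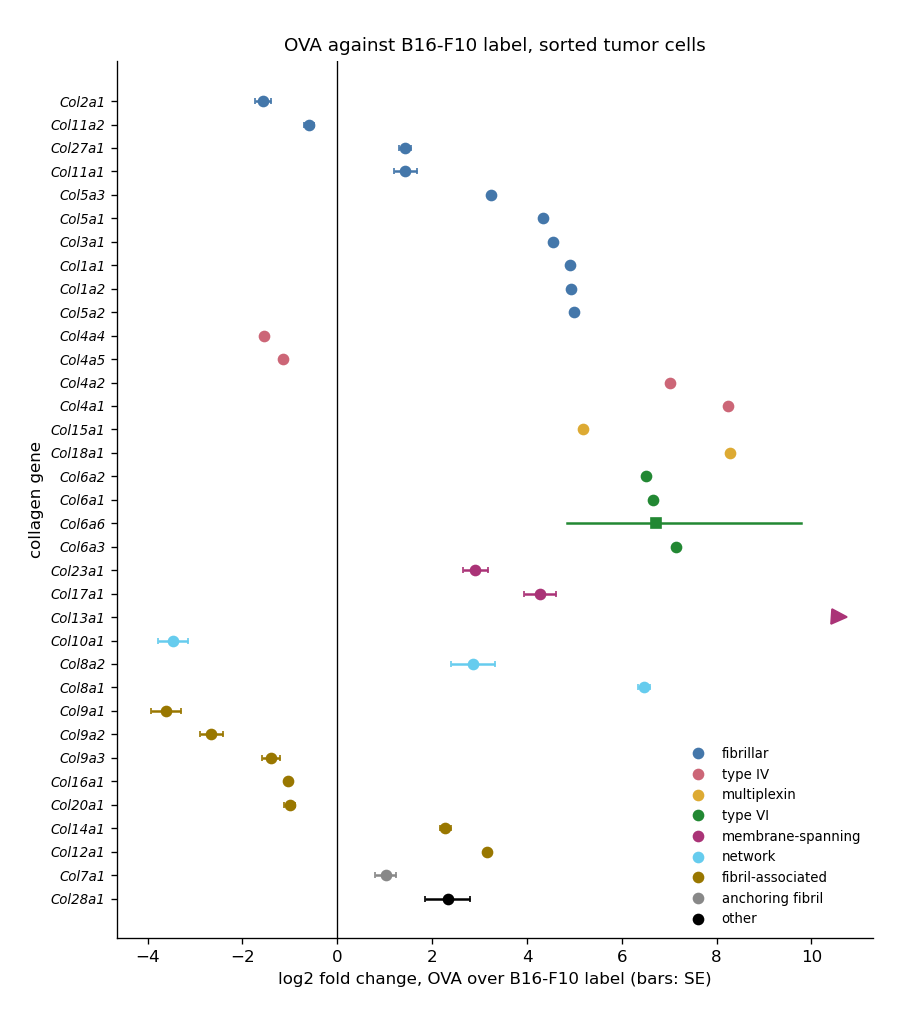
Log2 fold change of the 35 collagen genes tested between the OVA tumor fraction and the B16-F10 tumor fraction, with bars for the SE and colours for the type. The triangle of Col13a1 is a lower bound against the floor of 3 counts, and the square of Col6a6 is the ratio of CPM with its 95% counting interval. The 25 genes right of 0 reach furthest for Col4a1, Col18a1 and Col13a1, and the 10 genes left of 0 include Col9a1, Col10a1 and Col9a2.

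Of the 17 abundant genes, 16 followed 1 order, with Col16a1 as the exception: every library of the OVA tumor fraction lay above every library of the B16-F10 tumor fraction and below every T cell library. These 16 are defined by that order, which by itself puts their OVA tumor fraction below the T cell level. The level in the OVA tumor fraction, as a share of the mean of the T cell groups, ran from 32.4% in Col6a3 to 45.2% in Col12a1, with a median of 38.6%. The same share was 41.6% for the summed endothelial markers, 39.5% for pericyte markers and 37.8% for fibroblast markers. All 12 endothelial and all 9 pericyte markers were called higher in T cells than in tumor cells under the OVA label. Of the 12 fibroblast markers 4 were called higher and 6 lower, with a median log2 fold change of -0.14. Among all genes tested in that comparison, 37.3% were called higher and 40.2% lower, 77.5% in all, so the fibroblast calls were near the shares of all genes. As a share of the mean of the T cell groups, the OVA tumor fraction stood at 13.7% for T cell markers and 111% for genes that fold and modify collagen. It stood at 609% for macrophage and monocyte markers and 5620% for melanoma markers. A link between the shares of the collagens and of these lists was not tested. In 6 genes the groups lay in the opposite order without overlap: Col2a1, Col4a4, Col4a5, Col9a1, Col9a2 and Col16a1. These were highest in the B16-F10 tumor fraction, lower in the OVA tumor fraction and lowest in the T cell fractions. The shares of all genes in these orders were not counted, so the counts of 16 and 6 are not read as traits of collagens. Groups without overlap were common, at 82.6% of all genes tested between the tumor fractions and 54.5% between the T cell fractions.

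The comparison of T cells by tumor label asks whether RNA collected with CD8 beads differs between tumors that carry and lack the antigen. Collagen differences there were small, and more genes were lower than higher under the OVA label: the multiplexins, type I, type V and the main type VI chains Col6a1 and Col6a2 fell slightly, and Col6a3, Col9a3 and Col11a2 rose. Of 34 genes tested, edgeR called 5 higher and 18 lower and left 11 uncalled, where 23.7% and 22.4% of all 16536 genes tested were called higher and lower, 46.1% in all. The median log2 fold change was -0.12, against -0.01 over all genes, and 27 of the 34 had libraries that did not overlap, as had 54.5% of all genes tested. With libraries scaled to their totals alone, 38.8% of all calls were in the higher direction in place of 51.3%. As in tumor cells, the markers moved too: endothelial markers summed to 13020 ± 38.2 CPM in the B16-F10 T cell fraction and 12310 ± 32.6 CPM in the OVA T cell fraction, pericyte markers to 4309 ± 17.8 and 3582 ± 12.0 CPM, and fibroblast markers to 886 ± 1.23 and 1071 ± 15.6 CPM. Melanoma markers summed to 246 ± 3.80 and 109.6 ± 3.17 CPM, with 10 of 11 tested called lower, and macrophage and monocyte markers to 330.0 ± 3.71 and 241 ± 4.28 CPM, with 7 of 10 called lower. Of the 12 fibroblast markers 3 were called higher and 4 lower. Their part in these differences was not tested.

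Among the 17 abundant genes the log2 fold changes in T cells ran from -0.41 in Col13a1 to 0.13 in Col6a3, and 12 fell, 2 rose and 3 were not called. Col13a1 fell with -0.41 (SE 0.0240, edgeR adjusted p = 5.98e-14), the multiplexin Col18a1 with -0.23 (SE 0.0117) and Col15a1 with -0.16 (SE 0.0118). In the fibrillar type, Col1a1 fell with -0.10 (SE 0.0116), Col1a2 with -0.17 (SE 0.0134), Col5a1 with -0.08 (SE 0.0160), Col5a2 with -0.08 (SE 0.0186) and Col5a3 with -0.17 (SE 0.0166). Col3a1 was not called, at -0.01 (SE 0.0121), but was called lower at -0.06 with library totals alone (edgeR adjusted p = 8.01e-05). Type VI divided: Col6a1 and Col6a2 fell with -0.14 (SE 0.0147) and -0.16 (SE 0.0162), whereas Col6a3, the chain that joins them, rose with 0.13 (SE 0.0131, edgeR adjusted p = 5.16e-09). The ratio of Col6a3 to Col6a1 counts was 2.05 ± 0.0452 in the B16-F10 T cell fraction and 2.47 ± 0.0111 in the OVA T cell fraction. Col4a1 was called higher at 0.02 (SE 0.00839, edgeR adjusted p = 0.0194) although its CPM was lower under the OVA label, and with library totals alone it was called lower, at -0.03 (edgeR adjusted p = 0.00169). The call was lost without replicate 3 of the B16-F10 T cell fraction (adjusted p = 0.0599 in edgeR), with no filter (0.0554) and in a fit of all 12 libraries (0.0802). Col4a2 was not called, at 0.01 (SE 0.00909), but was called lower at -0.05 with library totals alone (edgeR adjusted p = 5.43e-05). Col8a1 at 0.03 (SE 0.0272) was not called. The fibril-associated Col12a1 and Col16a1 fell with -0.11 (SE 0.0257) and -0.24 (SE 0.0544).

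Larger differences in T cells were found among genes of low level. Col9a3 had 1.24, 1.75 and 1.03 CPM in the B16-F10 T cell fraction and 4.37, 3.49 and 3.86 CPM in the OVA T cell fraction, a log2 fold change of 1.59 (SE 0.200, edgeR adjusted p = 1.89e-07). Col11a2 had 6.53, 6.27 and 7.23 CPM and 11.9, 11.5 and 10.9 CPM, a log2 fold change of 0.84 (SE 0.0937). In both genes every OVA library lay above every B16-F10 library. Col28a1 rose from 1.01 ± 0.225 to 1.63 ± 0.186 CPM, with 0.76 (SE 0.258, edgeR adjusted p = 0.0166), a call lost in DESeq2 (adjusted p = 0.0804), without replicate 1 of the B16-F10 T cell fraction (0.0902) and without replicate 1 of the OVA T cell fraction (0.0868). Col6a6 had 2.38, 2.03 and 2.52 CPM and 0.453, 1.10 and 0.678 CPM and fell with -1.63 (SE 0.275, edgeR adjusted p = 1.79e-05). Col11a1 had 2.12, 2.03 and 1.61 CPM and 1.03, 0.756 and 0.933 CPM and fell with -1.01 (SE 0.248). Col6a5, named after its values were seen, had 48 counts in the B16-F10 T cell fraction and 4 in the OVA T cell fraction and held the lowest value, -3.71 (SE 0.548). These 3 fell without overlap between the groups. Col4a5 fell from 1.62 ± 0.0168 to 0.870 ± 0.268 CPM with -0.85 (SE 0.272, edgeR adjusted p = 0.0121), and the call was lost in DESeq2 (adjusted p = 0.059) and without replicate 1 of the OVA T cell fraction (0.11, log2 fold change -0.59). Col23a1 had 2.38, 2.83 and 2.77 and 1.85, 1.51 and 1.40 CPM and fell with -0.67 (SE 0.199). Col17a1 had 2.80, 2.20 and 2.32 and 1.77, 1.80 and 1.44 CPM, with -0.50 (SE 0.202, edgeR adjusted p = 0.0438). That call was lost in DESeq2 (adjusted p = 0.166), with no filter (0.126) and without replicate 1 or 3 of the B16-F10 T cell fraction or any 1 library of the OVA T cell fraction (0.0538 to 0.196).

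**Figure D4:**
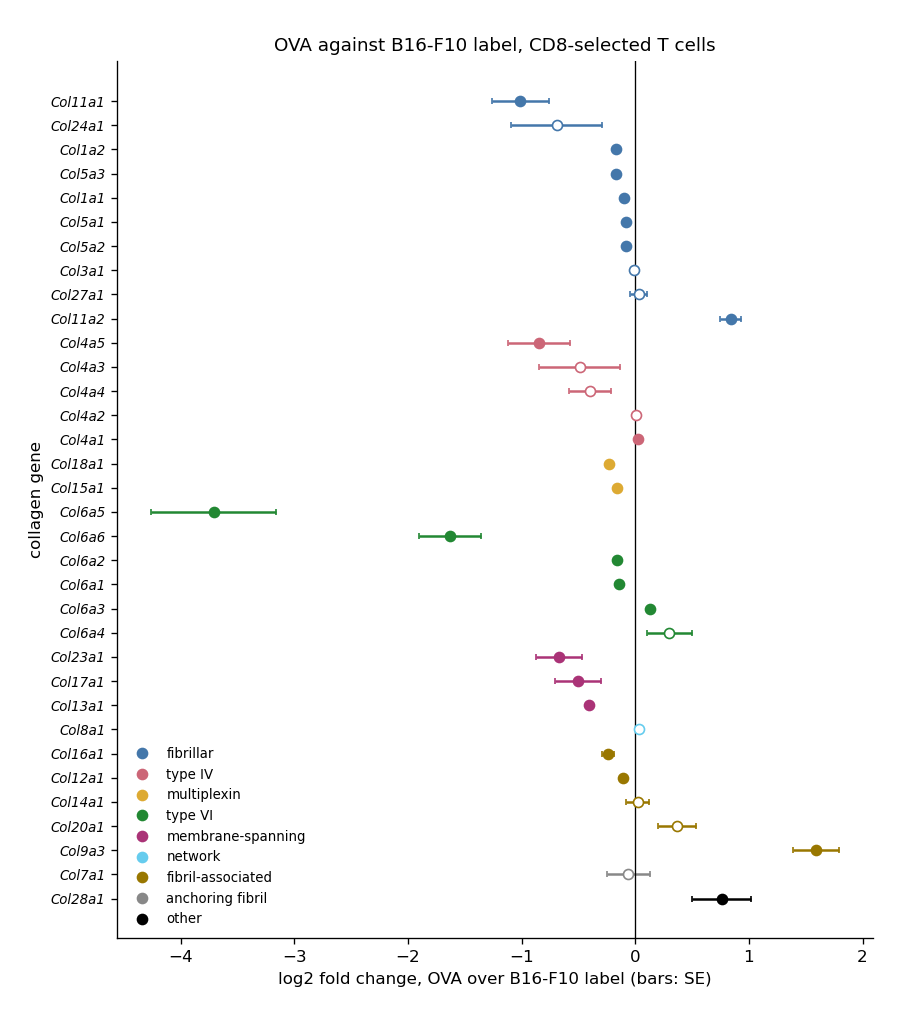
Log2 fold change of the 34 collagen genes tested between the OVA T cell fraction and the B16-F10 T cell fraction, with bars for the SE, colours for the type and open circles for genes not called. Most genes sit close to 0, Col9a3 and Col11a2 stand to the right, and Col6a5, Col6a6 and Col11a1 to the left.

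The difference between the OVA effects, T cells minus tumor cells, was tested as an interaction over all 12 libraries. It was lower in 29 and higher in 7 of the 39 genes tested, where 41.3% and 27.7% of 18562 genes were called lower and higher, 69.0% in all. The 7 higher were Col4a4, Col9a1, Col9a3, Col10a1, Col11a2, Col16a1 and Col20a1, and Col2a1, Col4a5 and Col9a2 were not called. For the type I genes the difference was -5.01 (SE 0.0300, edgeR adjusted p = 1.08e-35) in Col1a1 and -5.09 (SE 0.0343) in Col1a2, for Col4a1 -8.22 (SE 0.0286), for Col18a1 -8.52 (SE 0.0402) and for Col6a3 -7.02 (SE 0.0413). In the opposite sense it was 2.99 (SE 0.280, edgeR adjusted p = 4.91e-10) in Col9a3, 1.44 (SE 0.134) in Col11a2 and 0.81 (SE 0.0634) in Col16a1. Of the 30 collagen genes tested in both OVA comparisons, 17 were called in opposite directions, 15 of them higher in tumor cells and lower in T cells. Of all 15603 genes tested in both, 20.8% were called in opposite directions, 12.8% higher in tumor cells and lower in T cells and 8.08% the reverse. The other 2, Col9a3 and Col11a2, were lower in tumor cells and higher in T cells.

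The T cell fractions were also compared with the tumor fractions of the same label. These comparisons share libraries with the OVA comparisons, so their values are given side by side and not as further support. Under the B16-F10 label, 29 genes were called higher and 10 lower in T cells of 39 tested, where 45.5% and 40.4% of all genes were called higher and lower, 85.9% in all. Under the OVA label 23 were higher, 10 lower and 6 not called, where 37.3% and 40.2% of all genes were called higher and lower, 77.5% in all. On the log2 scale, Col4a1 was higher in the T cell fraction by 9.73 (SE 0.0240) under the B16-F10 label and by 1.51 (SE 0.0136) under the OVA label. In the same order of labels, Col1a1 was higher by 6.46 (SE 0.0236) and 1.44 (SE 0.0149), and Col6a3 by 8.82 (SE 0.0309) and 1.79 (SE 0.0146). These 3 genes were higher in the T cell fraction under both labels, with the smaller difference under the OVA label. Of the 5 type IV genes tested, 3 were called higher and 2 lower under each label. Among fibrillar genes Col2a1 was lower under both, with -5.00 (SE 0.371) and -3.69 (SE 0.436), and Col11a1 was higher under B16-F10 and lower under OVA, with 1.54 (SE 0.243) and -0.91 (SE 0.225). Col13a1 was at least 4495-fold higher in T cells under the B16-F10 label and 1.23 (SE 0.0272) higher on the log2 scale under the OVA label. Col16a1 was lower in T cells under both, with -1.49 (SE 0.0411) and -0.68 (SE 0.0456), as was Col4a5, with -3.87 (SE 0.110) and -3.57 (SE 0.137). Col9a1 was at 0 counts in the B16-F10 T cell fraction and at least 54.1-fold lower there than in tumor cells. Col11a2 changed side between the labels, with -0.23 (SE 0.0987, edgeR adjusted p = 0.0302) under B16-F10 and 1.20 (SE 0.0913, edgeR adjusted p = 5.74e-12) under OVA. The first of these calls was lost in DESeq2 (adjusted p = 0.201), with median-ratio size factors (0.0971), with the 6 libraries of that label alone (0.0863) and without replicate 2 or 3 of the B16-F10 tumor fraction or replicate 1 or 2 of the B16-F10 T cell fraction (0.0503 to 0.114). Col9a3 changed side as well, with -0.99 (SE 0.206) and 2.00 (SE 0.191). Col20a1, lower under B16-F10 with -0.98 (SE 0.148), was 0.37 (SE 0.150, edgeR adjusted p = 0.0262) under OVA, a call lost with library totals alone (adjusted p = 0.143), with no filter (0.096) and without any of 4 libraries (0.0534 to 0.0824), replicate 1 or 3 of the OVA tumor fraction and replicate 2 or 3 of the OVA T cell fraction. Col4a3, higher under OVA with 1.31 (SE 0.465), lost its call without replicate 1 of the OVA tumor fraction (adjusted p = 0.119 in edgeR) or replicate 2 of the OVA T cell fraction (0.0672).

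Genes that fold, cut, crosslink or bind collagen were counted in the same comparisons, with no test against the chains. Of all genes tested between the tumor fractions, 42.0% were called higher and 37.4% lower, 79.4% in all, so calls in these lists were common too. Of 20 folding and modification genes in tumor cells, 16 rose and 3 fell with the OVA label, with a median log2 fold change of 0.52, against 3.15 over the collagens tested. Serpinh1, the collagen chaperone HSP47, rose from 516 ± 6.98 to 904 ± 8.19 CPM and Fkbp10, another chaperone of the triple helix, from 33.6 ± 1.93 to 114 ± 3.04 CPM. Plod2, a lysyl hydroxylase, and P4ha1, a prolyl hydroxylase, both fell, Plod2 from 158 ± 2.23 to 93.1 ± 2.38 CPM, P4ha1 from 277 ± 3.01 to 202 ± 2.56 CPM. The sum of these genes was 3219 ± 19.9 CPM in the B16-F10 tumor fraction, which had little collagen RNA, and 4069 ± 15.7 CPM in the OVA tumor fraction, against 3729 ± 32.3 and 3596 ± 3.75 CPM in the B16-F10 and OVA T cell fractions. Of 5 tested genes that cut procollagen, 4 rose and 1 fell. Adamts2, which removes the amino end, rose from 0.741 ± 0.0101 to 58.5 ± 2.01 CPM, while Pcolce, an enhancer of the cut at the other end, fell from 161 ± 1.92 to 96.6 ± 3.27 CPM. Among the 5 lysyl oxidases that crosslink fibers 4 rose and 1 fell, with Lox rising from 1.68 ± 0.484 to 29.6 ± 0.403 CPM and Loxl3 falling from 68.0 ± 1.24 to 45.7 ± 1.76 CPM. The small proteoglycans that regulate fibrils rose in 6 of 7 tested and fell in none, Bgn (biglycan) from 4.49 ± 0.393 to 214 ± 3.74 CPM. All 15 tested of the other basement membrane components rose, with a median of 3.76. Hspg2 (perlecan) rose from 132 ± 1.64 to 1585 ± 9.78 CPM and the laminin chain Lamb1 from 1.31 ± 0.0933 to 463 ± 4.36 CPM. Of 9 collagen receptor genes tested, 7 rose and 1 fell, Itgb1, the shared integrin chain, from 444 ± 2.35 to 817 ± 5.34 CPM, and the receptor kinase Ddr1 falling from 131 ± 7.87 to 89.5 ± 1.63 CPM.

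In the T cell fractions the same lists were mixed. Of all genes tested there, 23.7% were called higher and 22.4% lower, 46.1% in all. With the OVA label, 5 folding genes rose and 8 fell of 20, 3 and 2 of 7 procollagen cutting genes, 2 and 2 of 5 crosslinking genes, 0 and 3 of 7 proteoglycans, 6 and 8 of 15 other basement membrane components, and 1 and 5 of 9 receptors. P3h2, a prolyl hydroxylase that acts on type IV collagen, rose with 0.62 (SE 0.0328, edgeR adjusted p = 6.93e-15), and the basement membrane genes Lama3 and Nid1 rose with 0.57 (SE 0.0323) and 0.13 (SE 0.0128). Nid2 and Hspg2 fell with -0.45 (SE 0.0124) and -0.21 (SE 0.0113). The proteoglycan Aspn fell with -0.52 (SE 0.0416), and the collagen-binding integrin chains Itga1 and Itga2 moved apart, with 0.23 (SE 0.0178) and -0.32 (SE 0.0266).

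Some of these genes share exon sequence with a neighbour, by an annotation of build GRCm38. The strand setting of the counting is not given in the sources used here, so it is not known how reads on the shared bases were counted. How many reads fell there was not counted, which also holds for the ratio of Col4a1 to Col4a2. Col4a1 and Col4a2 overlap on opposite strands, as do Col10a1 and Nt5dc1 (3936 counts over all libraries) and Col9a3 and Tcfl5 (64 counts). Col20a1 overlaps BX649560.1 (1328 counts) on the same strand, and values of Col10a1 and Col20a1 are uncertain for that reason.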

How the data were processed

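Messenger RNA selected with poly-T beads was sequenced in 12 libraries, 3 in each of 4 groups taken from the sample titles. The deposited table holds raw counts per gene, made by the authors with HISAT2 2.0.5 and featureCounts 1.6.0 on build GRCm39, per the submitters' processing notes. The annotation release, the strand setting and the treatment of multi-mapping reads are not given in the sources used here. No column was left out. Libraries of a group differed by somewhat more than counting noise, with a chi-square per degree of freedom of 1.51 to 1.77. That does not show that they came from separate mice. Each library was counted as 1 replicate.

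Counts were tested in R 4.3.3 with edgeR 4.0.16: filterByExpr by group, TMM scaling, quasi-likelihood F tests, and Benjamini-Hochberg adjustment over all genes tested, with a threshold of 0.05. The OVA comparisons used the 6 libraries of a fraction, the other comparisons all 12. SEs come from the F statistic. The test was checked on simulated counts. CPM used library totals, and intervals and floors (3 counts over a group) cover counting error only. The depth of 15494683 to 33263730 counts per library makes 1 count worth well under 0.1 CPM. Exon lengths and overlaps come from GENCODE M21 and promoters from RefSeq, both on build GRCm38, used for no coordinates of the counts.

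The members and gene lists were chosen with earlier results of these data known. Of 154 genes in those lists, 153 were found. Genes named are members with at least 50 CPM in a group, the 3 highest and 3 lowest called log2 fold changes of each OVA comparison among those with at least 1 CPM, members called in opposite directions, and up to 2 genes per list and direction by adjusted p. Other members are named to account for the family. Alternatives were median-ratio size factors, library totals, DESeq2 1.42.0, other filters, scaling to the melanoma markers, a replicate block, fits on other sets of libraries, and leaving out each library.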

Additional observations from a re-analysis of the deposited data

Results flagged for a closer look

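The OVA effect differed between the fractions, by the interaction test over 12 libraries in edgeR, for 36 of the 39 collagen genes tested, where 69.0% of all genes tested differed. The genes given here are the 17 called in opposite directions in tumor cells and in T cells, as were 20.8% of all genes tested in both, with the difference, T cells minus tumor cells, on the log2 scale. Among fibrillar genes it was -5.01 in Col1a1, -5.09 in Col1a2, -4.41 in Col5a1, -5.08 in Col5a2, -3.42 in Col5a3 and -2.45 in Col11a1. In type VI it was -6.80 in Col6a1 and -6.66 in Col6a2, and in the multiplexins -5.35 in Col15a1 and -8.52 in Col18a1. The membrane-spanning Col17a1 and Col23a1 had -4.77 and -3.59, and the fibril-associated Col12a1 had -3.27. Col17a1 is listed through a T cell call that was lost in DESeq2 (adjusted p = 0.166) and in other settings given above. In the listed genes that reached 50 CPM, the effect in T cells was only -0.41 to -0.08, so the difference mostly restates the effect in tumor cells. For Col6a6 and Col13a1, which had 2 and 0 counts in the B16-F10 tumor fraction, only the edgeR adjusted p of the difference is given, 5.9e-13 and 1.98e-27. The cartilage collagens Col9a3 and Col11a2 had differences of the other sign, 2.99 and 1.44. Groups of 3 libraries are too small for a test of single libraries that stand apart.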

How the results depend on the processing

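Of 198 alternative values of the counts of collagen genes called and of the collagen share, 197 kept their direction and size class. The exception was scaling to the melanoma markers, which left 5 genes lower in tumor cells in place of 10. It moved the median log2 fold change of all genes from 0.04 to 1.10 and that of the collagens from 3.15 to 4.22, put 96.1% of all calls in the higher direction in place of 52.9%, and turned Col11a2 to 0.46, Col16a1 to 0.01 and Col20a1 to 0.07. Library totals alone moved the all-gene median of that comparison to -0.13. Leaving out 1 library gave 25 to 26 higher and 10 lower genes in tumor cells, 4 to 5 and 16 to 18 in T cells, 6 to 7 and 28 to 29 for the difference between the effects, 29 and 9 to 10 for T cells against tumor cells under the B16-F10 label, and 21 to 23 and 10 under the OVA label. Of 3094 alternative values of single genes, 3028 kept direction and call, 42 lost the call, 5 gained one and 19 turned sign. In T cells, library totals alone turned Col4a1 to -0.03 and Col4a2 to -0.05, both then called lower, and Col8a1 to -0.03, Col14a1 to -0.04 and Col27a1 to -0.03. Leaving out 1 library gave -0.01 to 0.01 for Col3a1 (0.00 with no filter), -0.06 to 0.08 for Col14a1, -0.11 to 0.02 for Col7a1 and -0.01 to 0.09 for Col27a1, none of which was called. For the difference between the effects, Col2a1 ran from -0.59, without replicate 1 of the OVA T cell fraction, to 1.76, Col9a1 lost its call without replicate 2 of that group (adjusted p = 0.05 in edgeR), Col28a1 without replicate 3 of the B16-F10 tumor fraction (0.0501), and Col4a3 in DESeq2 and without any of 6 libraries (0.0547 to 0.138). For T cells against tumor cells under the OVA label, Col14a1 became -0.03 with library totals alone, and Col10a1, not called, ran from -0.21 to 0.88 with 1 library left out. The cause was not tested. Deviations of same-numbered libraries correlated between -0.126 and 0.252 over 18 pairs, and over 0.1 in 2. Both of these lay between the OVA tumor and OVA T cell fractions, 0.252 for replicate 1 and 0.225 for replicate 3, with -0.050 for replicate 2. Differently numbered libraries of all groups ran from -0.271 to 0.215. The numbers were not taken as pairs, and a pairing within the OVA label was not tested further. With the replicate block, counts were 25 higher and 10 lower in tumor cells and 5 and 17 in T cells, where Col17a1 alone lost its call. Genes under 1 CPM in every group were limited by depth.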
